A study of Caenorhabditis elegans with 2 samples.

Results

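The genes described here build autophagosomes and acidify the lysosome. They were taken as the protein-coding genes of the Ensembl annotation of WBcel235 whose names start with vha-, atg-, lgg- or epg-, plus unc-32, unc-51, bec-1, vps-34, hlh-30 and sqst-1. This gave 49 of 19973 protein-coding genes, of which 21 encode subunits of the vacuolar ATPase (V-ATPase) and 28 act in autophagy. At each of them the occupancy of ZTF-4, a protein named as a zinc finger transcription factor, was read from ChIP-seq of whole Caenorhabditis elegans at the L1 larval stage. The animals were strain OP322, genotype unc-119(ed3) III; wgIs322, with an insertion for eGFP-tagged ZTF-4, and males and females were pooled. The labels hold 1 group with 2 biological replicates and no other genotype, treatment or stage. Whole animals were used, so more cells with ZTF-4 at a site and more ZTF-4 per cell cannot be told apart, and the tag was carried on wgIs322 while the labels do not describe the state of the endogenous gene.

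Autophagy encloses cytoplasm in a double membrane that is delivered to the lysosome. A kinase complex around UNC-51 starts the process, a lipid kinase complex of VPS-34, BEC-1 and EPG-8 marks the membrane, and a conjugation system attaches the ubiquitin-like proteins LGG-1 and LGG-2 to it. The lysosome is kept acidic by the V-ATPase, whose cytosolic V1 sector hydrolyses ATP and whose membrane V0 sector carries protons. HLH-30, the worm counterpart of mammalian TFEB, is known to activate many of these genes in fasted animals.

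The regions used had passed the authors' irreproducible discovery rate (IDR) threshold, which rests on agreement between replicates. There were 1898 of them, with signals of 49.6 to 904, and no region of the pooled list outside them had a higher signal than any of them. A single region need not recur, since of 936 in gene promoters 899 had a counterpart within 100 bp in both replicates. The signal is the value that the authors' caller gave a region. Its scale is not stated, no read counts come with it, and it was compared only within a list. A gene was counted when the summit of a region lay in its promoter window, which reached 1000 bp upstream and 200 bp into the gene. No control library was analysed here and the depth is unknown.

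Of the 49 genes, 11 (22.4%) had an IDR region in the promoter window, against 6.07% of all protein-coding genes. The exact Clopper-Pearson 95% interval of the share was 11.8 to 36.6%, which covers counting error only and treats genes as independent. Autophagy genes made up 7 of 28 (25%) and V-ATPase genes 4 of 21 (19%). The genes were lgg-1, lgg-2, epg-7, epg-8, atg-9, atg-18, atg-16.2, vha-8, vha-9, vha-12 and vha-15. With the 1898 strongest regions of a single replicate the count was again 11, against 5.53% of all genes in replicate 1 and 6.06% in replicate 2. In both replicates at once it was 8 (16.3%), against 4.14% of all genes.

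The summit sequences of the 3 members with the highest pooled signal, both sites of lgg-1 included, and of vha-12 and vha-15 are shown. The last 2 were picked after their sequences were seen, because they hold the same 8 letters as the weaker lgg-1 site. Each run is 101 bases centred on the summit, read 5′ to 3′ on the strand of the gene from the RefSeq copy of WBcel235. Capitals mark matches, on either strand, to TCACGTGA, CACGTG or 6-base motifs that were drawn from the summits of other IDR regions. None of the stretches overlaps an annotated exon.
lgg-2, chrIV:10936141-10936241, minus strand: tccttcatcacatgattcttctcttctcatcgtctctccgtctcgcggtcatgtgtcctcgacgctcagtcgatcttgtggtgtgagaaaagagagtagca
lgg-1, chrII:6348559-6348659, minus strand: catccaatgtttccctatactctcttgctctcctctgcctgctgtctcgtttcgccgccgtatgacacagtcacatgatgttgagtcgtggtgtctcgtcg
lgg-1, chrII:6347905-6348005, minus strand: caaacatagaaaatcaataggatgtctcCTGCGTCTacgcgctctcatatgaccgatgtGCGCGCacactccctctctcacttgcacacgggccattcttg
epg-7, chrX:7334512-7334612, plus strand: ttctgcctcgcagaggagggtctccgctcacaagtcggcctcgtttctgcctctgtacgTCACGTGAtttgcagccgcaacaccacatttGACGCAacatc
vha-12, chrX:4190749-4190849, plus strand: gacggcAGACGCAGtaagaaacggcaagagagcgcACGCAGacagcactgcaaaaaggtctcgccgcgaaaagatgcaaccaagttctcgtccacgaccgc
vha-15, chrX:2237556-2237656, plus strand: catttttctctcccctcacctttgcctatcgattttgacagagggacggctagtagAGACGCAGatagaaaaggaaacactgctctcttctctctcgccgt
The first sequence of lgg-1 is its distal site and the second its proximal site. At the proximal site the summits of both replicates fall outside the stretch shown.

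The proximal site of lgg-1 and the sites of vha-12 and vha-15 all hold AGACGCAG or its reverse complement CTGCGTCT. Within 50 bp of the summit this 8-mer was present in 3 of the 12 IDR regions in member windows, against 12.3% of all 936 promoter IDR regions. The 300 bp promoters (250 bp before to 50 bp after the 5' end) are a longer stretch in another place. They held it at 6.12% of members and 3.54% of all protein-coding genes. The 8-mer was chosen after the sequences were seen, since it spans 3 overlapping 6-mers. Those were among the 5 with the highest ratio of presence at summits to presence in flanks, over the IDR regions outside member windows. The leading one, ACGCAG, lay at 17.3% of those summits and 1.86% of their flanks, and GCGCGC was at 3 of the 12 member regions (atg-18, vha-9 and the proximal site of lgg-1), against 8.65% of promoter IDR regions. In the member regions ACGCAG was at 3 of 12, against 19% of promoter IDR regions, AGACGC at 3 of 12, against 16.6%, and CGCGCC at 1 of 12 (atg-16.2), against 10.3%. GACGCA was found in 6 of the 12 regions, at atg-16.2, epg-7, epg-8, lgg-1, vha-12 and vha-15, against 21.6% of promoter IDR regions. The sites of lgg-2 and vha-8 and the distal site of lgg-1 held none of the searched motifs. The epg-7 site was the only one of the 12 with TCACGTGA, an E-box form bound by TFEB-type factors, which occurred in 5 of the 936 promoter regions (0.534%). The shorter E-box CACGTG was at 2 of the 12, epg-7 and atg-9, against 5.77%. The GATA-type motif TGATAA was at 0 of the 12, which allows a share of up to 25%, against 4.17%. A match is a description of the letters and not of a factor at work.

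The ATG8 family, whose members coat the growing autophagosome, gave the highest promoter signals of the 49 genes in the pooled list, while in replicate 1 epg-7 stood above lgg-1. Both of its genes, lgg-2 (LC3 type) and lgg-1 (GABARAP type), had an IDR region. The lgg-2 region (chrIV:10936106-10936288) had signals of 173 in replicate 1 and 164 in replicate 2 (mean 168 ± 6.29, SD, n = 2) and 337 in the pooled list. It ranked 30, 28 and 30 in these lists, in that order. Its summit was intergenic, at −288 bp from the 5' end. The distal lgg-1 region (chrII:6348434-6348783) had signals of 109.6 and 123.4 (mean 116.5 ± 9.76, SD, n = 2) and a pooled signal of 233, rank 72. Its summit lay at −890 bp. Replicate signals of lgg-2 did not overlap with those of any other member.

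lgg-1 was also the only member with 2 IDR regions in its window. The proximal region, at −236 bp, had signals of 49.7 in replicate 1, 48.3 in replicate 2 and 74.9 in the pooled list. The replicate summits of this site lay apart, at −158 bp in replicate 1 and −316 bp in replicate 2. Among the 1213 genes with a promoter IDR region, 27 (2.23%) had 2 or more. A further region of signal 132 lay at +918 bp, past the 3' end of lgg-1 and in the window of C32D5.8. At lgg-2, an intronic region at +425 bp had signals of 103 in replicate 1, 86.6 in replicate 2 and 191 in the pooled list. A weaker one at −1167 bp, with a pooled signal of 81.2, lay in the window of fic-1, the upstream gene on the opposite strand. Each ATG8 gene thus had 3 IDR regions between 3000 bp upstream and 200 bp past its 3' end. So did hlh-30, and the share of all genes with as many is not given here.

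**Figure D1:**
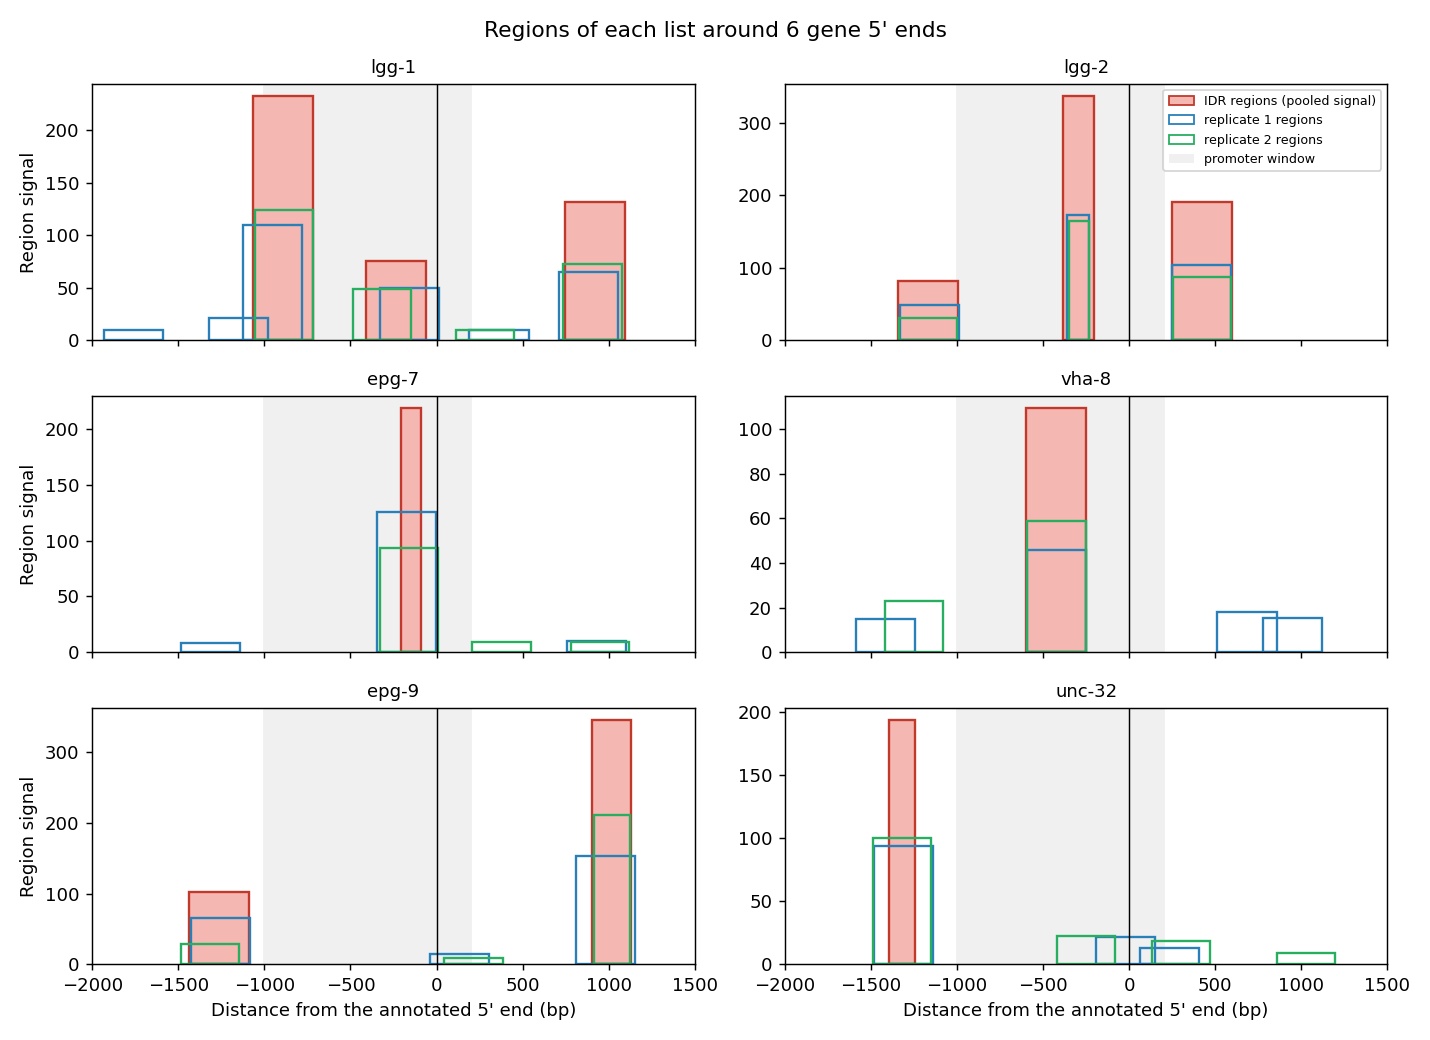
IDR regions (filled) and replicate regions (outlined) around the 5' ends of lgg-1, lgg-2, epg-7, vha-8, epg-9 and unc-32, with distance from the 5' end in bp on the x axis and the caller's signal on the y axis, scaled for each panel. lgg-1 and lgg-2 carry several IDR regions, and epg-7 and vha-8 a single IDR region beside weaker replicate regions. The strong IDR regions of epg-9 (signal 346) and unc-32 (signal 194) stand outside the shaded promoter window.

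Genes that start autophagosome formation differed widely. epg-7, which encodes a scaffold of the ATG11 and FIP200 type that takes part in clearing protein aggregates, had signals of 126 in replicate 1 and 93.9 in replicate 2 (mean 110 ± 22.9, SD, n = 2). Its pooled signal was 219, rank 83, at chrX:7334508-7334623 with the summit at −152 bp. The replicate signals of epg-7 and lgg-1 overlapped, and both lay above those of the remaining 8 members with an IDR region. The share with an IDR region at this step was 1 of 4 genes, against 6.07% of all protein-coding genes. The other genes of this step had no IDR region in the window. Their strongest pooled regions had signals of 21.0 (epg-9, the ATG101 counterpart), 17.9 (atg-13) and 14.9 (unc-51, the ATG1 kinase), and the unc-51 region had no counterpart in either replicate.

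In the lipid kinase complex only epg-8, the ATG14 counterpart that directs the complex to autophagy, had an IDR region. The signals of epg-8 were 32.4 in replicate 1, 45.7 in replicate 2 and 78.9 in the pooled list, with an intergenic summit at −234 bp. For bec-1 and vps-34 no region of the pooled list lay in the window. Among the 6 genes of membrane supply, atg-18 and atg-9 had one. atg-18, which encodes a protein that binds the lipid made by VPS-34, had signals of 38.7 and 26.1 (pooled 69.9, summit at −254 bp, chrV:8631406-8631755). atg-9, which encodes a transmembrane protein that moves lipids between membrane leaflets, had 40.7 and 19.8 (pooled 61.0, summit at −183 bp, chrV:349027-349376). The remaining 4 (atg-2, epg-3, epg-4 and epg-6) had pooled signals of 19.6 to 29.2.

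The genes of the conjugation machinery, which acts on the products of lgg-1 and lgg-2, had lower signals than lgg-1 and lgg-2 themselves. Of 9, 1 had an IDR region, atg-16.2, whose product brings the conjugation enzyme to the membrane. Its signals were 20.2 in replicate 1 and 34.7 in replicate 2 (pooled 55.8, rank 1531, chrII:6453411-6453760, summit at −195 bp). This was the lowest pooled signal among the 11 genes. atg-3, an E2-like enzyme, had a pooled region of signal 43.2 that it shared with Y55F3AM.9, and atg-7, the E1-like enzyme, one of 21.5. The atg-7 summit lay in a coding exon of let-70 and had no counterpart within 100 bp in replicate 1. For the other 6 (atg-4.1, atg-4.2, atg-5, atg-10, atg-16.1 and lgg-3) the pooled list had no region in the window. The share of conjugation genes with a pooled region was thus 33.3%, near the 32.6% of all protein-coding genes. The cargo receptor gene sqst-1 (pooled 19.6), the tether gene epg-5 (21.6) and the regulator gene hlh-30 (37.6) had no IDR region in the promoter window, and epg-2 had no pooled region there.

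Among V-ATPase genes the IDR regions all fell on the V1 sector, at 4 of 9 genes, while the V0 sector had 0 of 10 and the accessory subunits 0 of 2. A count of 0 of 10 allows a share of up to 30%, which includes the 6.07%, and the difference between the sectors was not tested. In the relaxed pooled list 8 of 9 V1 genes and 7 of 10 V0 genes had a region, against 32.6% of all protein-coding genes. vha-8, the E subunit of the peripheral stalk, had signals of 45.6 in replicate 1 and 58.8 in replicate 2 (mean 52.2 ± 9.32, SD, n = 2), with a pooled signal of 110 at chrIV:6790477-6790826. vha-12, the B subunit of the ATP-hydrolysing head, had 66.7 and 42.1 (mean 54.4 ± 17.4, SD, n = 2), with a pooled signal of 107 at chrX:4190624-4190973. The replicate ranges of these genes overlapped. vha-15, an H subunit, had 31.0 and 30.8 (pooled 69.9, chrX:2237431-2237780). vha-9, the F subunit of the central stalk, had 25.31 and 30.03 (pooled 58.7, chrII:10303759-10304108). Their summits lay at −422, −295, −305 and −221 bp in the order named. The vha-8 region was the only member IDR region shared with another promoter, that of C17H12.2 on the opposite strand.

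Closest to the threshold without passing it was the adjacent V0 pair vha-1 and vha-2, which encode c subunits of the proton-carrying ring. vha-1 had a pooled signal of 49.3, rank 1919, just under the lowest IDR signal of 49.6, in a region it shared with sqv-3. Its replicate signals were 23.4 and 30.9. vha-2, which starts 400 bp behind vha-1 on the same strand, had a pooled signal of 46.8 with 28.8 in replicate 1 and 13.2 in replicate 2. It shared this region with R10E11.6, and the summit lay in a coding exon of vha-2 at +119 bp. After atg-3 (43.2), the V1 genes vha-13 (A subunit) and vha-11 (C subunit) followed, with pooled signals of 42.1 and 38.3. The vha-13 summit, at −513 bp, lay in an untranslated region of the upstream gene cept-2 on the same strand. That of vha-11 lay in its own coding exon at +161 bp. In all, 6 members without an IDR region had a pooled region ranked within 3796, which is 2 times the number of IDR regions. These were vha-1, vha-2, vha-11, vha-13, atg-3 and hlh-30. Both replicates held each of these regions, with 16.6 and 17.6 at hlh-30, 22.4 and 18.3 at atg-3, 22.9 and 14.8 at vha-11 and 30.4 and 13.2 at vha-13. With replicate 2 alone vha-1 entered and atg-9 left the count, and with replicate 1 alone vha-2 and vha-13 entered while atg-16.2 and vha-9 left.

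**Figure D2:**
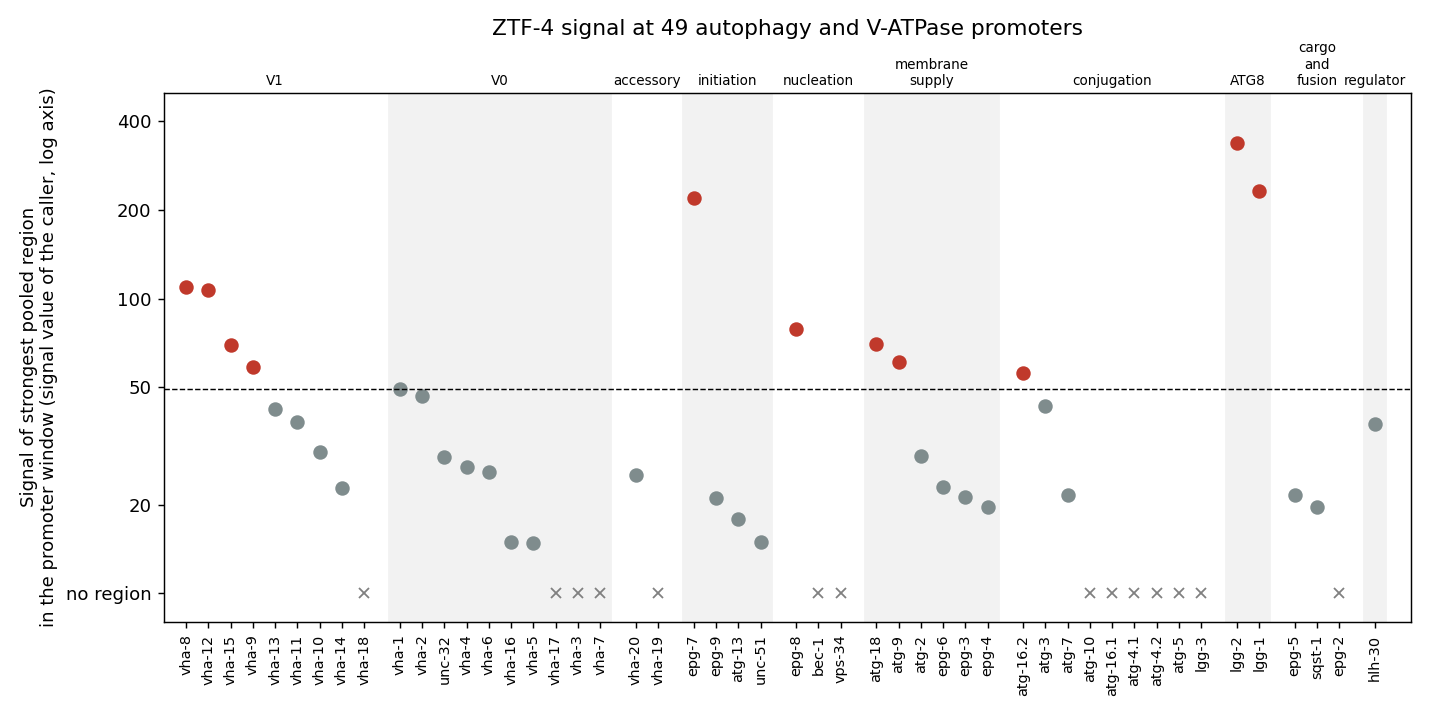
Signal of the strongest pooled region in the promoter window of each of the 49 genes (y axis, log scale), grouped by role; red points passed the IDR threshold (dashed line at 49.6), grey points did not, and crosses have no pooled region. The ATG8 genes and epg-7 stand above 200, the V1 genes reach 110, and all V0 genes lie below the line.

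The other V0 genes with a pooled region (unc-32, vha-4, vha-5, vha-6 and vha-16) had signals of 14.8 to 29.0, and vha-3, vha-7 and vha-17 had no region. Of the remaining V1 genes, vha-10 and vha-14 had pooled signals of 30.2 and 22.8 and vha-18 had no region. The accessory subunit gene vha-20 had 25.1, and vha-19 had none. At unc-32 the signal of 29.0 had a counterpart within 100 bp in replicate 2 only, of 22.15. The strongest replicate 1 region in the window had 21.29, with its summit farther away. In the relaxed pooled list, which includes background, 35 of the 49 genes (71.4%) had a region in the window, against 32.6% of all protein-coding genes. Of the 24 that fell short of the IDR threshold, 9 had a counterpart within 100 bp in both replicates, 9 in replicate 1 only, 5 in replicate 2 only and 1 in neither. Their pooled signals ran from 14.8 to 49.3 with a median of 24.1.

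The strongest region of each of the 11 members, which leaves out the proximal lgg-1 site, had a counterpart within 100 bp in each replicate. The farthest was at 61 bp. Replicate 1 was higher at 6 and replicate 2 at 5, with log2 ratios of replicate 1 to replicate 2 from −0.78 at atg-16.2 to 1.04 at atg-9. Over the 899 promoter IDR regions matched in both replicates the SD of this ratio was 0.58, so that neither extreme is beyond 2 SD of the spread between replicates. Of the member regions, 9 were within the 1898 strongest of replicate 1 and 10 within those of replicate 2. Below lgg-2, lgg-1 and epg-7, each member overlapped in replicate signal with the next in the order of pooled signal, from vha-8 down to atg-16.2, so that neighbours there do not differ beyond their spread.

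**Figure D3:**
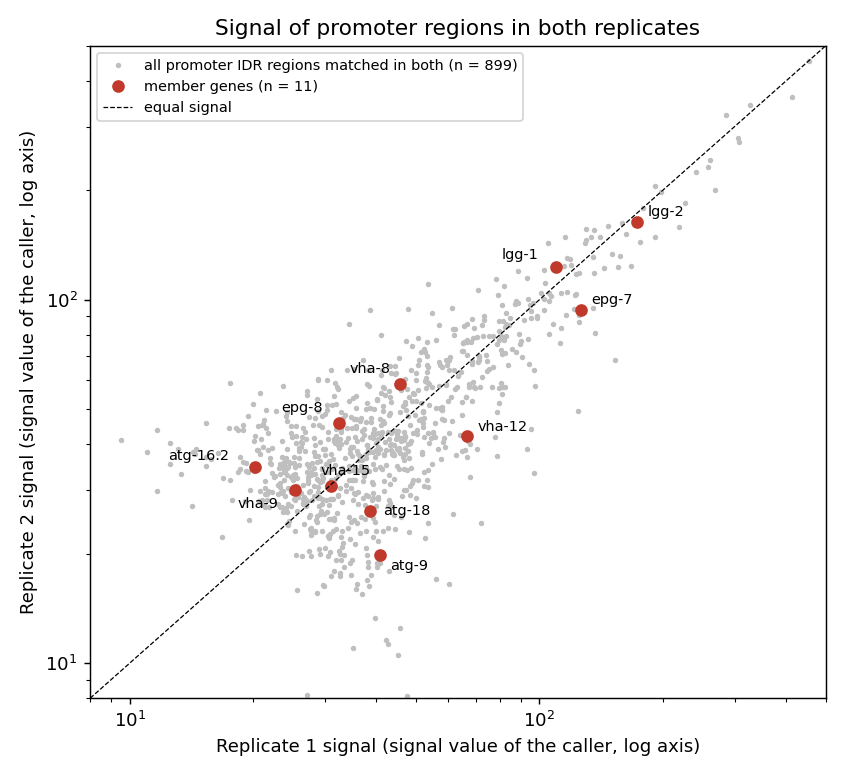
Signal of promoter IDR regions in replicate 1 (x axis) and replicate 2 (y axis), both log scaled, for 899 regions (grey) and the strongest region of 11 member genes (red); the dashed line marks equal signal. lgg-2 (173 and 164), lgg-1 and epg-7 lie at the upper right, above the other members, which lie between 19.8 and 66.7, and grey regions surround both sets.

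Of the 1213 genes with a promoter IDR region, 91 had one among the 100 strongest regions, and lgg-2, lgg-1 and epg-7 were 3 of these. The middle of the member values lay near that of other promoters. The median pooled signal was 78.9, against 78.3 over the 1213 genes with a promoter IDR region. The median summit position was −254 bp, against −246 bp, and 0 of the 11 lay downstream of the 5' end, which allows a share of up to 27.3%, against 5.44% of the 1213 genes. All 11 summits were intergenic, and the share over all promoter IDR regions is not given here. A region shared with the window of another gene was found at 1 of 11 members, against 48.3% of the 1213 genes. None of these differences was tested. On the X chromosome 3 of 6 members had an IDR region, and on autosomes 8 of 43, against 5.90% and 6.10% of all protein-coding genes there.

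**Figure D4:**
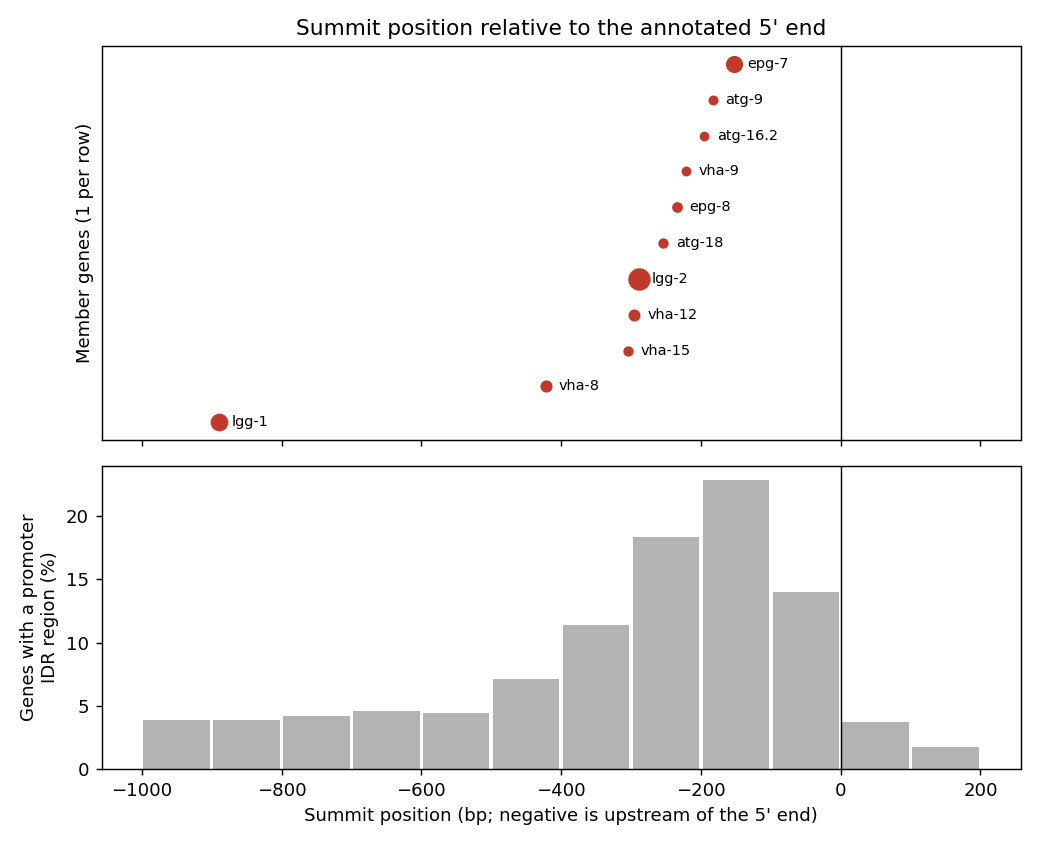
Summit position in bp relative to the annotated 5' end for the strongest region of 11 member genes (upper panel, point size grows with signal) and the percentage of 1213 genes with a promoter IDR region per 100 bp bin (lower panel). Of the 11 points, 10 lie between −422 and −152 bp, and lgg-1 lies at −890 bp.

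Several members had strong regions that the promoter window missed. Counting from 3000 bp upstream to 200 bp past the 3' end, 24 of 49 genes had an IDR region, against 11.7% of all protein-coding genes. This stretch grows with gene length, of which the median was 2503 bp in members and 2027 bp in all protein-coding genes. The highest region outside the window was intronic in epg-9, at +1000 bp (chrIV:2602044-2602272), with signals of 153 in replicate 1, 211 in replicate 2 and 346 in the pooled list, rank 29. It was higher in the pooled list than the lgg-2 promoter region (337), and no protein-coding gene had it in its promoter window. unc-51 had a region of signal 107 at −1407 bp (50.8 and 56.9 in the replicates) and sqst-1 one of 130 at −1623 bp (72.7 and 54.9), both intergenic and in no promoter window. At unc-32, which encodes a V0 a subunit known from neurons, a region of signal 194 (93.8 and 100.3 in the replicates) lay at −1317 bp, in the window of lin-9, a cell cycle regulator on the opposite strand.

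Internal start sites placed further regions near members. hlh-30 had 3 intronic regions, the weakest (49.6) with no counterpart in replicate 2, while that with a pooled signal of 79.0 (41.75 and 36.3 in the replicates) lay 6597 bp into the gene and at −227 bp from the 5' end of a shorter annotated transcript. epg-6, which encodes a protein of the same family as atg-18, had an intronic region at +359 bp from the gene start and −173 bp from another transcript. Its pooled signal was 53.9, but the replicates differed, with 11.4 in replicate 1 and 40.4 in replicate 2. A region in a coding exon of atg-7, of signal 53.1, lay at +209 bp, just outside the window. atg-7 starts 30 bp behind let-70 on the same strand, and a region of signal 206 at −2059 bp lay in the windows of let-70 and klc-1. Close same-strand neighbours, common in worm operons, were present within 500 bp upstream at 3 of the 11 members with an IDR region and 9 of the 38 without.

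Genes that work beside these members were read the same way. Of 46 genes of nutrient sensing, membrane fusion, the lysosomal membrane and V-ATPase assembly, 6 (13%) had an IDR region in the promoter window, against the same 6.07%. rbc-2, a rabconnectin that assembles the V-ATPase in other organisms, had a pooled signal of 142 (76.9 and 65.5), shared with ndua-8 and Y54F10AM.15. ppk-3, a lipid kinase of the lysosome, had 126 (59.3 and 68.3), shared with no other gene. rab-7, the GTPase of late endosomes, had 118 and shared its region with mex-1 and W03C9.5. rheb-1, an activator of TOR, had 102 in a region shared with spk-1. ccz-1, which encodes a partner in RAB-7 activation, had 74.0 in a region shared with tag-65. mxl-3, a helix-loop-helix factor known to oppose HLH-30 in lipid metabolism, had 52.6. The TOR kinase gene let-363 and its partner gene daf-15 were among the 40 with none.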

How the data were processed

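ChIP-seq regions of 2 biological replicates of 1 group were used. The authors called relaxed regions against a control in each replicate and on pooled alignments, and made the IDR list from these, per the file records. The signal value in column 7 was deposited by the authors, and its scale is not stated. Which aligner, caller and cutoffs were used is not stated there. The ce11 lists were joined to genes of Ensembl release 115 (WBcel235, which is ce11), and 0 region ends fell outside its chromosomes. The ce10 lists were not used.

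Positions are summits, counted from base 1. A replicate region matched a summit within 100 bp. Python 3.11.15, pandas 2.3.3 and scipy 1.17.1 were used, and the assignment was tested on simulated data. No tests between groups were possible with 1 group, and no set test was made. Alternatives were other windows, transcript 5' ends, each replicate alone, stronger regions and other rules for shared regions. Depth is unknown. The 6-mers were counted within 50 bp of the summit and in windows 300 bp to each side, and had to occur at 5% of summits. The members, roles and lists were chosen with earlier results of these data known. Genes named are members with an IDR region, members with a pooled region ranked within 3796, and lgg-1, lgg-2, unc-32, unc-51, bec-1, vps-34, hlh-30 and sqst-1; others are given by role. Regions outside the window, members without a pooled region and the 8-mer were named after their values were seen.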

Additional observations from a re-analysis of the deposited data

How the results depend on the processing

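The count of 11 genes was 9 with a narrow window (300 bp upstream to 100 bp downstream, against 3.60% of all genes), 13 with transcript 5' ends (6.60%), 11 with either replicate alone, 10 with shared regions left out (3.15%) and 10 with each region given to the nearest gene (4.54%). It was 17 in a wide window (2000 to 500 bp, against 8.17% of all genes), with 12 autophagy genes, and 6 among the 949 stronger IDR regions (against 3.41%), with 4 autophagy and 2 V-ATPase genes. V-ATPase genes were also 2 in the narrow window, which lost vha-8 and vha-15. Under every setting, 5 genes were found: epg-7, epg-8, lgg-1, lgg-2 and vha-12. The median signal of 78.9 was 74.9 in the narrow and 102.3 in the wide window, 164.5 among stronger regions, 74.4 without shared regions and 74.4 with the nearest gene. On the scale of a single replicate it was 40.75 to 42.06. The median position was −234, −288, −291.5, −244 and −244 bp in these settings, −234 bp with transcript 5' ends and −291 to −275 bp with 1 replicate. Matches in both replicates stayed at 11 except 9 with summits within 50 bp. No paired analysis was possible because there is 1 group. The cause of these shifts was not tested.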

Other observations

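The 300 bp promoters of the 49 genes, whether or not ZTF-4 was found there, held the searched motifs at shares both near and away from those of all protein-coding promoters. TGATAA was present in 7 of 49 (14.3%), against 30.2% of all promoters, at bec-1, lgg-2, lgg-3, vha-4, vha-6, vha-13 and vha-19. CACGTG was present in 3 of 49 (6.12%), against 5.82%, at atg-9, epg-5 and epg-7, and TCACGTGA only at epg-7, against 0.756%. AGACGCAG was present in 3 of 49 (6.12%), against 3.54%, at epg-3, epg-4 and hlh-30, none of which had an IDR region in the promoter window. The copies in the IDR regions of lgg-1, vha-12 and vha-15 were not counted here. They lay farther upstream than the 250 bp that these promoters reach. These shares were not tested. The GC content within 50 bp of the summit had a median of 51.5% over the 12 member regions, against 47.5% over 936 promoter IDR regions.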
